A study of Saccharomyces cerevisiae with 6 samples.

Results

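The carriers and enzymes that move acetate, lactate and carnitine-bound acetyl groups across the membranes of Saccharomyces cerevisiae were taken as a set of 10 genes by name, and all 10 were found among the 7125 genes of the deposited table: ADY2, ATO2, ATO3, JEN1, YAT1, YAT2, CAT2, CRC1, AGP2 and SFC1. Poly(A)-selected RNA was sequenced in 6 libraries of the S288C background, 3 of them wild type and 3 of a Kap114 KO strain, which lacks the nuclear import receptor Kap114. Cultures of both genotypes contained YPD (rich medium whose carbon source is glucose) plus 1.5 M NaCl. How long and to what density they grew is not given in the labels, and no library without added salt was analysed, so the values compare genotypes within high salt and measure no response to salt. All library names carry the word TAF1, whose meaning the labels do not give. No label says that replicate libraries are separate cultures, so a p-value here reflects only library-to-library spread, possibly technical.

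Yeast that runs out of fermentable sugar takes up acetate and lactate and turns them into acetyl-CoA and pyruvate. Acetyl-CoA cannot cross organelle membranes, so the acetyl group is handed to carnitine by a carnitine acetyltransferase, carried into the mitochondrion as acetylcarnitine and handed back to coenzyme A there. Genes of this kind are known to be repressed by glucose and to be induced on non-fermentable carbon through the kinase Snf1 and the activators Cat8, Sip4 and Adr1.

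The upstream regions of the 10 genes were searched because Cat8 and Sip4 bind a known DNA element, the carbon source response element. Its core was searched as CC, any 2 bases, T, any 3 bases and CCG, on both strands, in the 600 bases before the start codon, in sequence of build R64. It was found upstream of 4 of the 10 genes, ADY2, SFC1, CAT2 and CRC1, and upstream of 8.73% of 5999 protein-coding genes. ADY2 and SFC1 hold 2 matches each. A match is a description of the letters and shows no binding. In the stretches below, a match on the strand opposite to the gene appears as its reverse complement. The stretches that hold the core, read 5′ to 3′ on the strand of the gene with the core in capitals, are chrIII:133565-133654 (minus strand, ADY2), chrX:609183-609312 (plus strand, SFC1), chrXIII:192488-192567 (plus strand, CAT2) and chrXV:514499-514558 (minus strand, CRC1).
ADY2: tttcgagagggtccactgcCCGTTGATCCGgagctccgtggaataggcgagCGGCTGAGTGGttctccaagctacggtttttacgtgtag
SFC1: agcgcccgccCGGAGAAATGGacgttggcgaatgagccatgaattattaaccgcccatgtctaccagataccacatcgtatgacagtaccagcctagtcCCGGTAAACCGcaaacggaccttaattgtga
CAT2: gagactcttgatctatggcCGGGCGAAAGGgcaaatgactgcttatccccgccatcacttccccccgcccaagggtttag
CRC1: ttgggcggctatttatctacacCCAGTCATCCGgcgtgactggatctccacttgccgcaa

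Other short motifs were searched in the same windows on both strands. Adr1 sites, searched as TTGGGG or TTGGAG, were found upstream of 7 of the 10 genes and of 32.1% of all genes. Sites of the glucose repressor Mig1, searched as C or G, then C or T, then GGGG, were found upstream of 8 of the 10 and of 27.8% of all. The stress response element AGGGG, bound by Msn2 and Msn4, was found upstream of 8 of the 10 and of 39.7% of all. Matches of different motifs that overlapped were each counted. Since the 10 genes were chosen with earlier results of these data known, these shares, and that of the core above, serve as description only. ATO3 alone of the 10 holds 4 stress response elements packed together, at chrIV:1242532-1242581. They are shown in capitals on the minus strand, that of the gene, where each reads CCCCT, the reverse complement of AGGGG. The share of all genes that hold such a cluster was not determined.
ATO3: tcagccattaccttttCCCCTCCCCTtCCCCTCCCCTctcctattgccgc
For 4 of the 10 genes (ADY2, ATO2, YAT2 and AGP2) the window reached into the next gene. The only Adr1 match counted for ATO2 lay 589 to 584 bases upstream, beyond the 487-base gap to RPC34. The only Mig1 match counted for YAT2 lay 547 to 542 bases upstream, beyond the 255-base gap to PRO3.

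Library totals ranged from 33638728 to 38540115 counts. The deleted gene, KAP114, was counted 257, 336 and 312 times in the wild type and 0 times in each knockout library. Across all genes the first principal component of log2 CPM (counts scaled to library size) held 88% of the variance and separated the genotypes. Knockout library 1 lay at 12.01 on it, between the wild-type libraries (-42.99 to -29.52) and knockout libraries 2 and 3 (53.05 and 42.44). The ribosomal RNA locus RDN37 took 3.69% to 4.54% of wild-type counts and 9.05% to 12.3% of knockout counts. With it left out of the totals, 10 of 10 carrier genes were still called lower. That fit only removes the locus from the scaling. Whether the higher share comes from library preparation cannot be told apart from genotype, and its effect on the carrier genes was not tested.

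All 10 carrier genes fell in the knockout, by 1.49-fold to 4.94-fold, and 0 rose. Steep declines were those of YAT1, SFC1 and ADY2, and AGP2 and ATO3 declined least. The call was an adjusted p under 0.05 over 6080 genes (edgeR's quasi-likelihood test, Benjamini-Hochberg), which called 30.0% of all genes lower and 34.3% higher. At least 2-fold lower were 8 of the 10, against 7.63% of all genes tested. The 10 genes were chosen with earlier results of these data known, so shares over all genes, here and below, serve as description only. In 10 of 10 every knockout library lay below every wild-type library, as it did in 35.9% of all genes, and in 0 of 10 did every knockout library lie above, as in 37.9% of all genes. The median log2 fold change was -1.58 over the 10 genes and 0.01 over all genes tested; without knockout library 1 that of the 10 genes was -2.24. In bulk RNA, fewer cells that express a gene and less of its RNA per cell cannot be told apart. Without 1 library the number of carrier genes called lower was 7 when wild-type library 1 or knockout library 3 was dropped, 8 for each of wild-type libraries 2 and 3, and 10 for each of knockout libraries 1 and 2; over all genes the 1826 lower calls became 1211 when wild-type library 1 was left out and 1090 when knockout library 3 was.

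**Figure D1:**
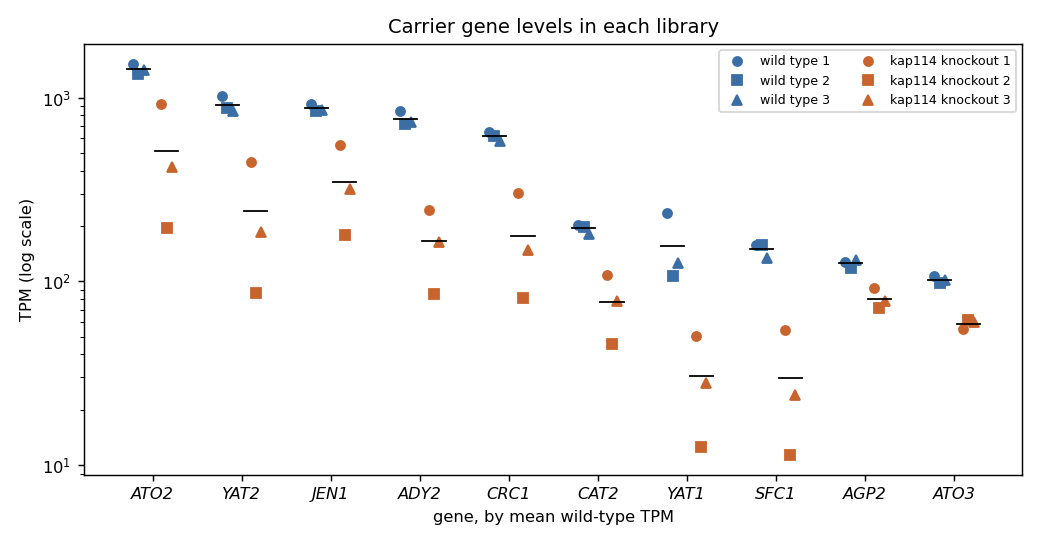
Level of each carrier gene in TPM (a level scaled for gene length and depth, log axis), with 1 symbol per library (blue wild type, orange kap114 knockout) and a black bar at each group's mean (n = 3). For every gene the knockout libraries lie below the wild-type libraries, and the knockout libraries spread more widely than the wild-type ones for most genes, such as ATO2 with 196 to 920 TPM against 1340 to 1531 TPM.

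The acetate transporter gene ADY2 and its homologues ATO2 and ATO3 were taken first. ADY2 (YCR010C, chromosome III, 132273 to 133124, minus strand) encodes the main acetate transporter, and its TPM, a level scaled for gene length, was 844, 714 and 735 in wild-type libraries 1 to 3 and 246, 85.1 and 164 in knockout libraries 1 to 3. The groups did not overlap, and the lowest wild-type library was well above the highest knockout library. ADY2 fell 4.43-fold (log2 fold change -2.15 ± 0.36, SE, edgeR adjusted p = 0.00237), and it ranked 15 by size among the 1826 genes called lower.

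ATO2 (YNR002C, chromosome XIV, 633008 to 633856, minus strand), for a homologue of Ady2, had 1531, 1340 and 1418 TPM in the wild type and 920, 196 and 416 TPM in the knockout. Knockout library 1 lay nearer to the wild type, as a ratio, than to knockout library 2. ATO2 fell 2.68-fold (log2 fold change -1.42 ± 0.50, SE, edgeR adjusted p = 0.0386). This call ended without any 1 wild-type library or without knockout library 3, at an edgeR adjusted p of 0.0758 to 0.116; over all 17 alternatives it ran from 0.000116 to 0.116. Without knockout library 1 the fall of ATO2 was 4.41-fold.

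ATO3 (YDR384C, chromosome IV, 1241204 to 1242031, minus strand), for a further homologue, which in yeast has been linked to the export of ammonium, had 106, 98.0 and 101 TPM in the wild type and 55.0, 61.3 and 60.4 TPM in the knockout. Both groups were tight, and knockout library 1 held the lowest value. ATO3 fell 1.65-fold (log2 fold change -0.72 ± 0.10, SE, edgeR adjusted p = 0.00116). The coding sequences of ADY2 and ATO2 had 72.4% identical bases when aligned, with no shared run longer than 17 bases. ATO3 had 56.1% identity with ADY2 and 58.2% with ATO2, with no shared run longer than 10 bases. Whether any reads were assigned to the wrong homologue was not tested.

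JEN1 (YKL217W, chromosome XI, 22234 to 24084, plus strand) encodes the proton symporter for lactate and pyruvate. It had 922, 847 and 858 TPM in the wild type and 551, 178 and 318 TPM in the knockout. Wild-type libraries lay close together, and knockout library 2 was lowest. JEN1 fell 2.40-fold (log2 fold change -1.26 ± 0.38, SE, edgeR adjusted p = 0.0229). Its call also ended without any 1 wild-type library or without knockout library 3, at adjusted p of 0.0542 to 0.0785, within a range of 0.000102 to 0.0785 over the 17 alternatives.

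Of the carnitine acetyltransferases, YAT2 (YER024W, chromosome V, 202192 to 204963, plus strand) was the most abundant, with 1015, 881 and 842 TPM in the wild type and 448, 86.1 and 187 TPM in the knockout. Knockout library 1 held several times the level of library 2. YAT2 fell 3.64-fold (log2 fold change -1.86 ± 0.55, SE, edgeR adjusted p = 0.0198); without wild-type library 1 the adjusted p was 0.0605 and without knockout library 3 it was 0.0727, within a range of 3.85e-05 to 0.0727 over the 17 alternatives. Without knockout library 1 the fall of YAT2 was 6.33-fold.

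YAT1 (YAR035W, chromosome I, 190193 to 192256, plus strand), for the acetyltransferase of the outer mitochondrial membrane, had 234, 107 and 126 TPM in the wild type and 50.4, 12.6 and 28.1 TPM in the knockout. Unlike the other 9 genes it spread widely in the wild type, where library 1 stood above the others. YAT1 fell 4.94-fold (log2 fold change -2.30 ± 0.53, SE, edgeR adjusted p = 0.00759), and ranked 7 by size among the genes called lower. It had the steepest fall of the 10 here and under 11 of the 17 alternatives, and SFC1 had it under the other 6, among them without wild-type library 1 (YAT1 -1.86, SFC1 -2.20).

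CAT2 (YML042W, chromosome XIII, 192788 to 194800, plus strand), for the acetyltransferase found in both peroxisomes and mitochondria, had 203, 197 and 181 TPM in the wild type and 109, 45.4 and 77.8 TPM in the knockout. It fell 2.39-fold (log2 fold change -1.26 ± 0.29, SE, edgeR adjusted p = 0.00809). Coding sequences of the 3 acetyltransferase genes had 55.0% to 61.1% identical bases, with no shared run longer than 11 bases.

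CRC1 (YOR100C, chromosome XV, 513295 to 514278, minus strand) encodes the carrier that brings acetylcarnitine through the inner mitochondrial membrane. It had 648, 614 and 582 TPM in the wild type and 301, 81.1 and 148 TPM in the knockout, and fell 3.33-fold (log2 fold change -1.74 ± 0.43, SE, edgeR adjusted p = 0.0104). The groups were separate, and the order of the knockout libraries was that of YAT2. Without knockout library 1 the fall was 5.08-fold.

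AGP2 (YBR132C, chromosome II, 499652 to 501442, minus strand), for the plasma membrane protein needed for carnitine uptake, had 127, 119 and 130 TPM in the wild type and 91.5, 71.4 and 78.1 TPM in the knockout. Its decline was 1.49-fold (log2 fold change -0.57 ± 0.13, SE, edgeR adjusted p = 0.00729), the smallest of the 10 here, though equal to that of ATO3 at -0.66 without knockout library 1.

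SFC1 (YJR095W, chromosome X, 609773 to 610741, plus strand) encodes the carrier of the inner mitochondrial membrane that exchanges succinate, a product of the glyoxylate cycle, for fumarate. It had 158, 159 and 134 TPM in the wild type and 54.2, 11.3 and 24.1 TPM in the knockout. Every knockout library was far below the wild type, and the fall was 4.81-fold (log2 fold change -2.27 ± 0.50, SE, edgeR adjusted p = 0.00645), rank 10 by size among the genes called lower. Without knockout library 1 the fall of SFC1 was 7.99-fold. In the authors' deposited table the same 10 genes had signed fold changes of -1.49 (AGP2) to -4.94 (YAT1) and false discovery rates of at most 0.00661, where 25.4% of the 6570 genes with any count were lower with a rate under 0.05.

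In the wild type the order of mean TPM from high to low was ATO2 (1429 ± 96.2, SD, n = 3), YAT2 (913 ± 90.9), JEN1 (876 ± 40.5), ADY2 (764 ± 69.7), CRC1 (614 ± 33.0), CAT2 (194 ± 11.5), YAT1 (156 ± 68.6), SFC1 (150 ± 14.3), AGP2 (125 ± 5.90) and ATO3 (102 ± 4.21). Ranges of neighbours overlapped for YAT2 and JEN1, for CAT2 and YAT1 and for YAT1 and SFC1, and were separate elsewhere. The first 5 of these genes ranked, by mean, above at least 96.4% of all genes in the table. In the knockout the order was ATO2, JEN1, YAT2, CRC1, ADY2, AGP2, CAT2, ATO3, YAT1 and SFC1, from 511 ± 371 to 29.9 ± 22.0 TPM (SD, n = 3), and the ranges of all neighbours overlapped except those of ATO3 and YAT1. YAT1 and SFC1, at 83.0% and 83.4% in the wild type, ranked near the middle of all genes in the knockout, at 48.8% and 47.6%, whereas ATO2 still ranked at 93.5%.

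The knockout libraries held the carrier genes in a shared order. In 9 of the 10 genes library 1 was highest, library 3 intermediate and library 2 lowest in CPM, ATO3 being the exception. That order was found in 33.9% of all genes tested and in 73.1% of the genes called lower. It is also their order of distance from the wild type on the first principal component. The median difference of the 10 genes from the wild-type mean in log2 CPM was -0.90, -2.81 and -1.84 for knockout libraries 1, 2 and 3, while the median over all genes was 0.01, 0.02 and 0.02. SFC1 ranged from -1.41 in library 1 to -3.64 in library 2, and ATO2 from -0.57 to -2.78, whereas ATO3 lay between -0.83 and -0.65 and AGP2 between -0.73 and -0.40. What sets the libraries apart was not tested.

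**Figure D2:**
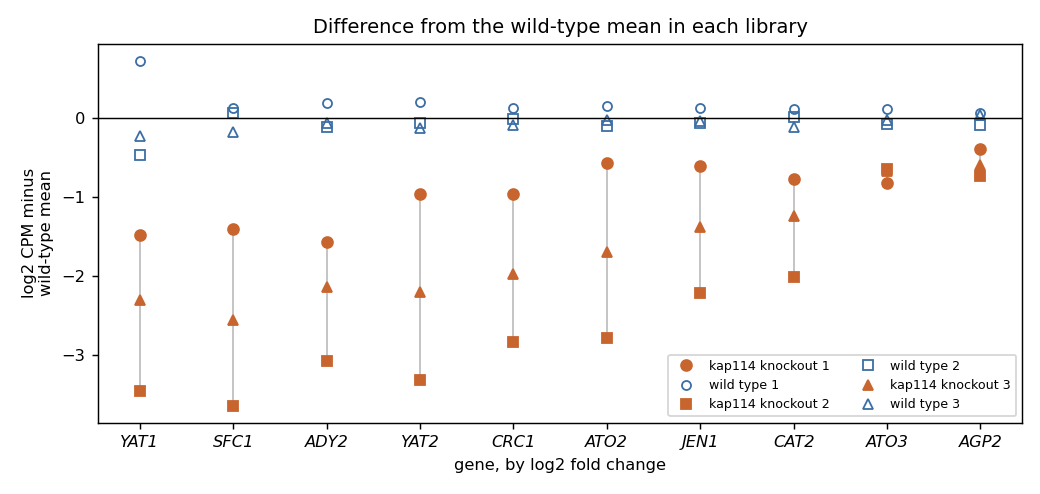
Difference of each library's log2 CPM from the wild-type mean, for the 10 carrier genes in order of their log2 fold change (filled orange, knockout; open blue, wild type; the grey line spans the 3 knockout libraries). Knockout library 1 lies nearest to the wild type and library 2 farthest in every gene but ATO3, where the 3 libraries lie between -0.83 and -0.65.

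The make-up of the gene families was compared as a share of summed TPM within each library, which does not depend on scaling between libraries. ADY2 made up 34.0%, 33.2% and 32.6% of the summed TPM of ADY2, ATO2 and ATO3 in the wild type and 20.1%, 24.8% and 25.5% in the knockout. ATO3 made up 4.29% to 4.55% in the wild type but 4.51%, 17.9% and 9.42% in the knockout, so the groups overlapped. CAT2 made up 14.0%, 16.6% and 15.8% of the TPM of the carnitine acetyltransferases in the wild type and 17.9%, 31.5% and 26.6% in the knockout.

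JEN1 had 1.09, 1.19 and 1.17 times the TPM of ADY2 in the wild-type libraries and 2.24, 2.09 and 1.94 times in the knockout libraries. The knockout ratios lay close together although the levels of both genes varied widely among those libraries. YAT2 had 4.99, 4.46 and 4.65 times the TPM of CAT2 in the wild type and 4.11, 1.90 and 2.40 times in the knockout. Of 10 such ratios and shares, 5 did not overlap between the genotypes. Each of these 5 had p = 0.1 in a two-sided exact permutation test and 0.2 after Benjamini-Hochberg adjustment over the 10. The smallest value that 3 libraries against 3 allow is 0.1, so none could have passed and nothing is concluded from the test. The 10 are not independent, since shares within a family are tied to each other and the ratios reuse the same genes. How often ratios of other genes separate the genotypes was not tested, so the count of 5 is description only.

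**Figure D3:**
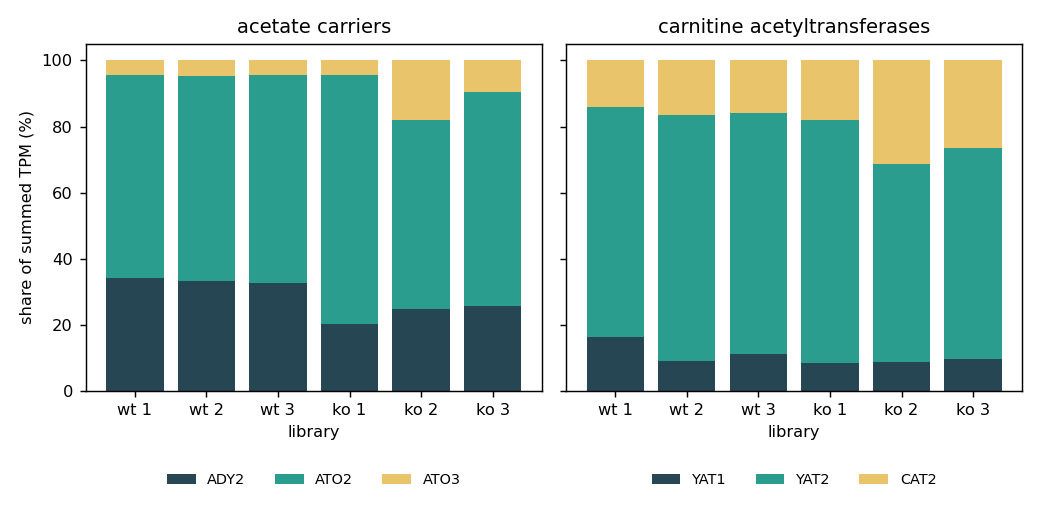
Share of summed TPM (percent, from 0) of ADY2, ATO2 and ATO3 (left) and of YAT1, YAT2 and CAT2 (right) in each wild-type (wt) and knockout (ko) library. The ADY2 share spans 32.6% to 34.0% (wild type) and 20.1% to 25.5% (knockout), and the CAT2 share is 14.0% to 16.6% and 17.9% to 31.5%.

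The tested genes whose profile over the 6 libraries was nearest to that of each carrier gene were found by Euclidean distance between log2 CPM values centred on each gene's mean. Nearest to ADY2 was IDP2, for the cytosolic isocitrate dehydrogenase, at a distance of 0.326. Nearest to JEN1 was MPC3, for a subunit of the mitochondrial pyruvate carrier (0.153), and nearest to SFC1 was ACS1, for an acetyl-CoA synthetase (0.419). CAT2 lay nearest to PXA1, for a subunit of the peroxisomal fatty acid transporter (0.121), ATO2 to PRR2, for a protein kinase (0.187), CRC1 to PDH1 (0.155), YAT2 to YFL021C-A (0.185), ATO3 to SWC5 (0.0895) and AGP2 to CYT2 (0.0407). YAT1 had no close match, with AQY1, for an aquaporin, at 0.755 and ADY2 next but one at 0.761. In no other case was a carrier gene among the 3 nearest to another. These distances describe 6 libraries whose main difference is genotype. The values were not scaled by their spread, so a near gene is mostly one with a similar fold change. Functions are given for only some of the near genes, and no shared function is read from them.

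None of the 10 overlaps another gene of the table. Of the 10 genes next upstream, 5 were called higher and 1 lower, and of 8 tested genes next downstream 4 were called higher and 1 lower, where 34.3% of all genes tested were called higher and 30.0% lower; with so few neighbours nothing is read from these counts. RPL43B, which lies 914 bases upstream of SFC1 on the same strand and encodes a ribosomal protein, had a log2 fold change of 2.13. PRO3, 255 bases upstream of YAT2, had 1.27. These 2 neighbours were named after their values were seen. JEN1 lies 22.2 kb from a chromosome end and YAT1 38.0 kb, and the other 8 genes lie 132 kb or more away.

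Enzymes that use what the carriers bring in were compared from lists of related genes, each described by its counts and its median beside the 30.0% and 34.3% of all genes called lower and higher. Of 9 genes for acetate and acetyl-CoA enzymes 5 fell and 2 rose, with a median log2 fold change of -0.70. ALD4, for the main mitochondrial aldehyde dehydrogenase, fell (-1.21 ± 0.30, log2, SE), and so did ACS1 (-2.15 ± 0.62), while ACS2, for the acetyl-CoA synthetase used on glucose, rose (1.68 ± 0.22), as did ALD5 (1.17 ± 0.24). ALD6 and ADH2 did not pass, at -0.29 and -0.37. The call for ACS1 ended without wild-type library 1 or knockout library 3 (edgeR adjusted p = 0.0544 and 0.0696), and its log2 fold change was -3.15 without knockout library 1; that for ALD4 ended without knockout library 3 (0.0554). The 5 that fell became 1 without wild-type library 1, 2 without wild-type library 2 or 3, and 0 without knockout library 3.

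Of 7 genes for lactate and pyruvate use 4 fell and 1 rose, with a median of -0.75. DLD1, for the mitochondrial D-lactate dehydrogenase, fell from 1164 to 456 mean CPM (-1.35 ± 0.21, log2, SE), and so did CYB2, for the L-lactate dehydrogenase (-1.26 ± 0.29), and MPC3 (-1.24 ± 0.35). MPC2 and DLD3 did not pass, at -0.19 and -0.12. The call for MPC3 ended when wild-type library 1, wild-type library 3 or knockout library 3 was dropped, at edgeR adjusted p of 0.0523 to 0.0622. The 4 that fell became 2 with any of wild-type libraries 1 and 3 and knockout library 3 left out. The gene that rose, DLD2, named after its values were seen, was not called with scaling by library totals, with limma on either TPM scale, or with wild-type library 1, wild-type library 2 or knockout library 2 left out.

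Of 9 genes of the glyoxylate cycle and gluconeogenesis 7 fell and 1 rose, with a median of -1.21. FBP1, for fructose-1,6-bisphosphatase, fell (-1.63 ± 0.17, log2, SE), and so did MLS1, for malate synthase (-1.21 ± 0.15), and MDH2, for the cytosolic malate dehydrogenase (-0.76 ± 0.15). ACO1, for aconitase, did not pass (-0.05 ± 0.14, log2, SE). Of 11 genes of peroxisomal beta-oxidation, the source of much of the acetyl-CoA that the carnitine shuttle moves, 9 fell and 0 rose, with a median of -0.83. SPS19 (-1.01 ± 0.11), DCI1 (-0.83 ± 0.11) and PEX11 (-0.69 ± 0.13), for proteins of fatty acid breakdown and peroxisome division, had the smallest p, and FAA2 and ECI1 did not pass.

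Among 15 regulators of carbon-source genes 9 fell and 1 rose, with a median of -0.43. The 9 became 5 if wild-type library 1 or knockout library 3 was dropped, and 6 if wild-type library 3 was. SIP4 (-0.81 ± 0.12, log2, SE) and HAP2 (-1.01 ± 0.17) fell, and MIG2, for a repressor active in glucose, rose (1.42 ± 0.25). The activator genes CAT8 (-1.23 ± 0.31) and ADR1 (-1.10 ± 0.32), named after their values were seen, also fell. The call for ADR1 ended on dropping the same wild-type libraries as for MPC3 or knockout library 3, at edgeR adjusted p of 0.0571 to 0.0704. MIG1 and HAP4 did not pass, at -0.12 and 0.20. Of 5 genes for the ubiquitin ligase Rsp5 and its adaptors, which act in the endocytosis of carriers such as Jen1, RSP5 fell (-0.65 ± 0.14) and ROD1 (0.49 ± 0.09) and BUL2 (0.55 ± 0.10) rose; 3 fell in all, or 1 if any of wild-type libraries 1 and 3 and knockout libraries 2 and 3 was left out.

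Other transporter families went less one way. Of 29 further carriers of the mitochondrial family 14 rose and 8 fell, with a median of 0.32; the 8 became 5 without knockout library 3. YMC1 (1.96 ± 0.25, log2, SE), YMC2 (1.85 ± 0.23) and the peroxisomal nucleotide carrier gene ANT1 (1.01 ± 0.11) rose, while YHM2 and YEA6 did not pass. Of 5 homologues of monocarboxylate transporters 3 fell and 2 rose (median -1.02): MCH2 fell by 1.17 on the log2 scale, and MCH5 and MCH4 rose (0.99 and 0.51). Of the ammonium permeases (median 1.37) MEP2 (1.37 ± 0.18) and MEP3 (1.44 ± 0.15) rose and MEP1 (-0.66 ± 0.12) fell. Of 17 other amino acid permeases, the family of AGP2, 9 fell and 5 rose, with a median of -0.42. The 9 became 6 without wild-type library 1 or 3, and 7 without wild-type library 2 or knockout library 3. They became 8 without knockout library 2 and 10 without knockout library 1. PUT4, for a proline permease, fell (-1.79 ± 0.25) and so did TAT2 (-1.07 ± 0.16), HIP1 rose (1.02 ± 0.14), and DIP5 and TAT1 did not pass. Whether the carrier genes differ from these lists was not tested.

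**Figure D4:**
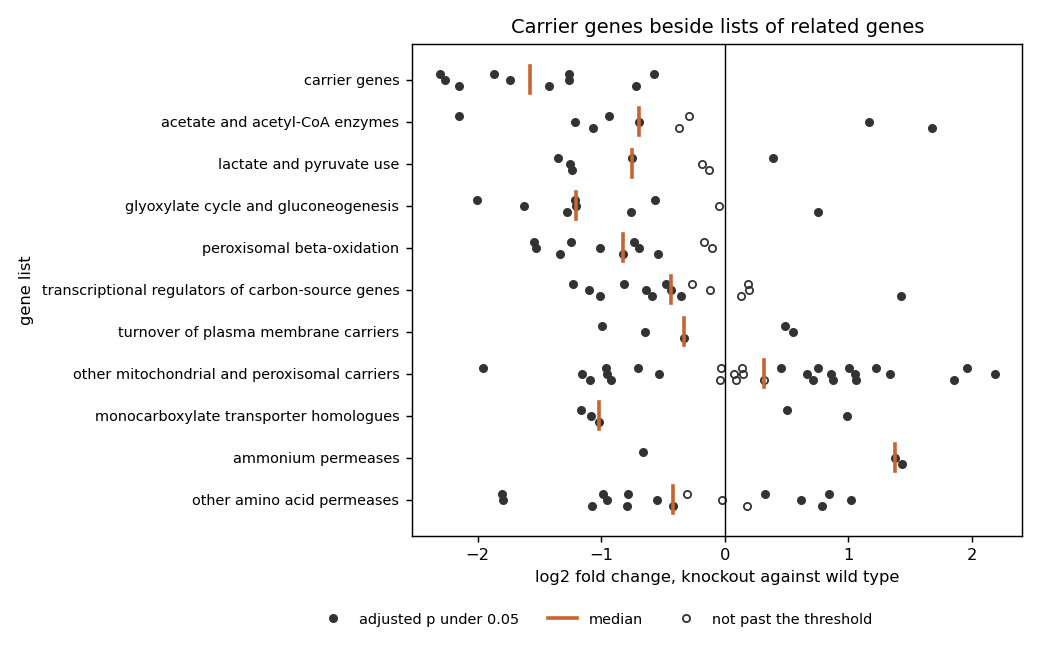
Log2 fold change, knockout against wild type, of the 10 carrier genes and of the genes in 10 lists of related genes (filled, adjusted p under 0.05 in edgeR's quasi-likelihood test; open, not past it; orange bar, median). The carrier genes lie between -2.30 and -0.57, with a median of -1.58, and the list of other mitochondrial and peroxisomal carriers has a median of 0.32.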

How the data were processed

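Groups and replicate numbers came from the sample titles; the library names number the knockout 3 to 5, and any order in these numbers cannot be told apart from genotype. Per the file headers, the authors deposited whole-number counts per gene, without normalization, and TPM from trimmed reads; the submitters' processing notes name build R64 and FastQC, with no aligner or counter given in the sources used here. Fold changes and false discovery rates printed as the authors' come from the deposited comparison columns. Per the labels' protocols, 2 ug of total RNA went into stranded poly(A) libraries.

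Genes were kept with filterByExpr (minimum count 10, total 15) and tested with edgeR 4.0.16 in R 4.3.3 (TMM scaling, robust quasi-likelihood fit, Benjamini-Hochberg adjustment over 6080 genes, threshold 0.05). All 10 members passed the filter, with at least 389 counts in every library. The SE came from the F statistic. On simulated data of 6080 genes with 200 changed, the test recovered 75% of changes of 1 and 98% of changes of 2 on the log2 scale, with 11 of 184 calls false. The simulation drew each gene's noise independently and changed few genes. In the real data 30.0% of genes were called lower and 34.3% higher, and many genes shared an order of the knockout libraries. These rates therefore do not carry over to the real comparison.

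Members and lists were chosen with earlier results of these data known. The text names all 10 members. Per list it names up to 3 called genes with the smallest p and up to 2 others with the highest CPM. ACS1, the gene nearest to SFC1, was named in its list outside this rule, as were CAT8, ADR1 and DLD2. Of the 3 genes found nearest to each member it names the first and, for YAT1, also ADY2. HEM25 was matched through its systematic name. Upstream sequences were read from the RefSeq genome of build R64, whose coordinates for the 10 genes equal those of the files. Alternatives tried were scaling by RLE, by upper quartile or by totals, RDN37 left out, DESeq2 1.42.0, limma 3.58.1 (voom on counts, or log2 TPM with a pseudocount of 1 or 0.1), a 10 CPM filter or none, a replicate block, and leaving out each library.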

Additional observations from a re-analysis of the deposited data

How the results depend on the processing

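All 10 carrier genes kept their direction under the 17 alternatives run, and all 10 were called lower under each of the 11 that used all libraries. Leaving out 1 library gave 7 to 10 carrier genes lower and 0 higher, 1090 to 2261 genes lower and 1729 to 2378 genes higher; of 170 values for single carrier genes, 160 stayed on their side of the threshold and 10 lost it, all 10 on leaving out a library; the cause was not tested. Without knockout library 1 the falls of ATO2, YAT2, CRC1 and SFC1 grew by over 1.5 times. Of 340 counts for the related lists, 20 moved by over 1.5 times. Of 36 called genes among the 49 named from the lists and the neighbours, 31 stayed called under each alternative that tested them. Direction changed only for genes not called: ACO1 was at 0.03 with upper-quartile scaling and from -0.12 to 0.03 on leaving out 1 library, and YHM2 and YEA6 were at -0.00 and -0.05 with scaling by library totals. Of the genes not called, ECI1 (-0.25) and DIP5 (-0.45) passed with scaling by library totals, ALD6 (-0.32) with DESeq2, and DIP5 (-0.49) without knockout library 1. With scaling by library totals the median log2 fold change of all genes was -0.13, that of the carrier genes was -1.72, and the difference between them was -1.59, as in the reported fit; calls were then 1763 higher and 2297 lower. Without knockout library 1 the median of the carrier genes was -2.24 and without library 2 it was -1.21. Libraries of the genotypes with the same number in their titles had correlated deviations of 0.318, 0.181 and -0.067. Knockout library 3 correlated best with wild-type library 2 (0.257), so the title numbers were not taken as pairs. Wild-type library 3 and knockout library 1, both numbered 3 in the library names, correlated at -0.082. With a replicate block by title number 10 carrier genes, and 1857 genes in all, were lower and 2059 higher. The lowest count of a carrier gene in any library was 389; the effect of depth was not tested.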
